A study of Mus musculus with 4 samples.

Results

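Genes of the major histocompatibility complex (MHC) class I antigen presentation pathway were examined in sorted cells of mouse dermal hyperplasia with and without the Polycomb mutant Ezh2Y646N. The 10 genes were taken from a fixed list and were found by symbol among 22524 genes. They are the heavy chain genes H2-K1, H2-D1 and H2-T22, the light chain gene B2m, the peptide transport and loading genes Tap1, Tap2 and Tapbp, the immunoproteasome genes Psmb8 and Psmb9, and the class I transactivator gene Nlrc5. RNA was sequenced from 4 libraries, 2 labelled NrasQ61K and 2 labelled Ezh2Y646N. Both groups carried Tyr::NrasQ61K, Tyr::CreERT2 and R26R-LSL-tdTomato, so that tamoxifen switched on the red protein tdTomato in cells using the tyrosinase (Tyr) promoter. The Ezh2Y646N group also carried ColA1-LSL-Ezh2Y646N, an allele that the same Cre recombinase switches on. The tdTomato-positive cells were isolated by flow sorting before tumours formed. The labels give neither the age of the mice nor whether the 2 libraries of a group came from separate animals, so every p-value rests on library-to-library spread that may be technical.

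MHC class I molecules show short peptides from inside the cell to CD8 T cells. The proteasome cuts proteins into peptides, the Tap1-Tap2 transporter moves them into the endoplasmic reticulum, tapasin (Tapbp) loads them onto a heavy chain paired with beta-2 microglobulin (B2m), and the complex travels to the surface. Interferon-gamma raises most of these genes, and Nlrc5 acts on class I promoters together with factors bound at their X and Y boxes. In several tumour types Polycomb repressive complex 2, whose catalytic subunit is Ezh2, represses this pathway, and the comparison addresses whether the genes differ when the mutant Ezh2 is present.

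The promoters of the heavy chain and B2m genes are shown because they match elements known to regulate class I genes as a set. That of Tap1 is shown because it is shared with Psmb9. The lines give the 250 bases before the RefSeq start on GRCm38.p6, 5′ to 3′ on the strand of the gene. Capitals mark every match, on either strand, to AANNGAAA (the core bound by interferon regulatory factors), GGG and CCC with any 5 bases between (an NF-kB-like palindrome), TGACG (part of the X box) and CCAAT (the Y box).
H2-K1, chr17:34000348-34000597, minus strand: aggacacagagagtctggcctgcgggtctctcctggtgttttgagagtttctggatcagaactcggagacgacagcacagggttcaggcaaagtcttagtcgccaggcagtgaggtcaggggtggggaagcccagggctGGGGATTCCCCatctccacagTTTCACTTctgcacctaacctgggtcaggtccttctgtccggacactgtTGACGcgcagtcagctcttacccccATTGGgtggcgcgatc
H2-D1, chr17:35262844-35263093, plus strand: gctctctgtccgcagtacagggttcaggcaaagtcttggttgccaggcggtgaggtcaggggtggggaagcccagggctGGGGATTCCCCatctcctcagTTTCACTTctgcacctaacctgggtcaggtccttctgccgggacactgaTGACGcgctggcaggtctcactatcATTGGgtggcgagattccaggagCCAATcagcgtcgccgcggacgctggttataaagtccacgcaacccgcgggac
H2-T22, chr17:36042743-36042992, minus strand: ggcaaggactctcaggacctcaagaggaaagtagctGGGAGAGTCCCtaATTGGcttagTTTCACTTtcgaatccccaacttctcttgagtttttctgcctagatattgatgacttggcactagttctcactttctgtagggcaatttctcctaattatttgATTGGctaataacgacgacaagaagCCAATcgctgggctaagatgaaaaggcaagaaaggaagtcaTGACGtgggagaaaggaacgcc
B2m, chr2:122147437-122147686, plus strand: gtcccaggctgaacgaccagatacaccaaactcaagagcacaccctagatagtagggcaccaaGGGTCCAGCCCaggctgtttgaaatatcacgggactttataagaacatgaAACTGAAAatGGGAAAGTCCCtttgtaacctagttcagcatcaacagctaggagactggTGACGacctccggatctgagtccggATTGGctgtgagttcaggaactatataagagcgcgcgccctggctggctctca
Tap1, chr17:34187306-34187555, plus strand: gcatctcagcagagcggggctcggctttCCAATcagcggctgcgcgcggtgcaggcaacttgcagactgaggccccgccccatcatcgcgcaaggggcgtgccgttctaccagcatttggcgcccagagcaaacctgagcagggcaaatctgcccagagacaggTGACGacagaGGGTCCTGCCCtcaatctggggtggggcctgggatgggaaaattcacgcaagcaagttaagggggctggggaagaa

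RefSeq windows were used for 8 of the 10 genes; those of Tap2 and Nlrc5 were not used here. H2-K1, H2-D1, H2-T22 and B2m held all 4 motifs, which 0.122% of 32851 RefSeq windows of the same length did. Psmb8 held none of the 4 motifs, and Tapbp held CCAAT only. The motifs were picked as elements known in class I promoters, so these shares are no test. Singly, AANNGAAA was found in 4 of the 8 windows and in 21.3% of all windows, the NF-kB-like palindrome in 6 and in 12.2%, TGACG in 6 and in 17.8%, and CCAAT in 7 and in 33.8%. No match overlapped another in these windows. Tap1 and Psmb9 are transcribed away from each other, and their gene models overlap by 212 bases, so the window printed for Tap1 covers most of that of Psmb9. These matches describe letters, not bound sites. Of the 10 genes, 8 lie on chromosome 17, where Psmb9, Tap1, Psmb8 and Tap2 follow each other, while B2m lies on chromosome 2 and Nlrc5 on chromosome 8.

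The libraries held between 14808801 and 20600297 counts. Levels are given as CPM on library sizes after TMM scaling, and differences as log2 of Ezh2Y646N over NrasQ61K from a single edgeR fit over the 14265 genes tested. Ezh2 itself was at 135 and 91.6 CPM in the Ezh2Y646N libraries and at 171 and 75.1 CPM in the NrasQ61K libraries (edgeR's adjusted p = 0.944), and counts per gene do not tell mutant from endogenous RNA, so this gene could not check the labels. Nras, whose mutant form both groups carried, had a difference of -0.07 (edgeR's adjusted p = 0.944), and Tyr, whose promoter drives the transgenes, of 0.44 (edgeR's adjusted p = 0.435). Melanocyte markers were present in every library, with Dct between 1486 and 2757 CPM, but so were keratinocyte markers, with Krt5, a keratin of the basal epidermis, between 3750 and 8762 CPM. In these bulk libraries fewer cells of a type and less RNA per cell cannot be told apart.

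None of the 10 class I pathway genes was lower in the Ezh2Y646N libraries by the test, and none was higher. All 10 passed the filter on low counts. At an adjusted p under 0.05, edgeR, DESeq2 and limma voom each called 0 of them, against 1.77%, 4.43% and 1.5% of all genes tested. In edgeR's fit 1.1% of all genes were called higher and 0.673% lower. RLE scaling and a fit that was not robust also called 0 of the 10, with backgrounds of 1.52% and 1.71%. At an unadjusted p under 0.05 edgeR gave 1, H2-T22, where 14.3% of all genes passed. The fitted log2 fold change was above 0 in 9 of the 10 genes and had a median of 0.47, against a median of -0.04 and 46.0% above 0 over all genes tested. The groups did not overlap in 2 genes, H2-T22 and Nlrc5, both higher in Ezh2Y646N, while 44.2% of all genes showed no overlap and 21.1% none with Ezh2Y646N higher.

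These values depended on single libraries, and in 9 of the 10 genes, Nlrc5 being the other, the NrasQ61K libraries lay farther apart on the log2 scale than the fitted difference between the groups. NrasQ61K replicate 1 was the lowest of the 4 libraries in 10 of 10 class I genes, and it was the lowest in 29.8% of all genes tested. Ezh2Y646N replicate 2 was the highest in 8 and NrasQ61K replicate 2 in the other 2, Tap2 and Tapbp. Without NrasQ61K replicate 2 the median log2 fold change was 1.14 and 5 genes rose, H2-K1, H2-D1, H2-T22, B2m and Tap1, with edgeR's adjusted p between 0.00404 and 0.0483 (background 7.66%). Without NrasQ61K replicate 1 the median was -0.050, with 4 genes above 0 and 6 below, and 0 were called (background 2.95%). Without Ezh2Y646N replicate 1 or 2 it was 0.69 or 0.051, with 0 called (backgrounds 0.63% and 1.47%).

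**Figure D1:**
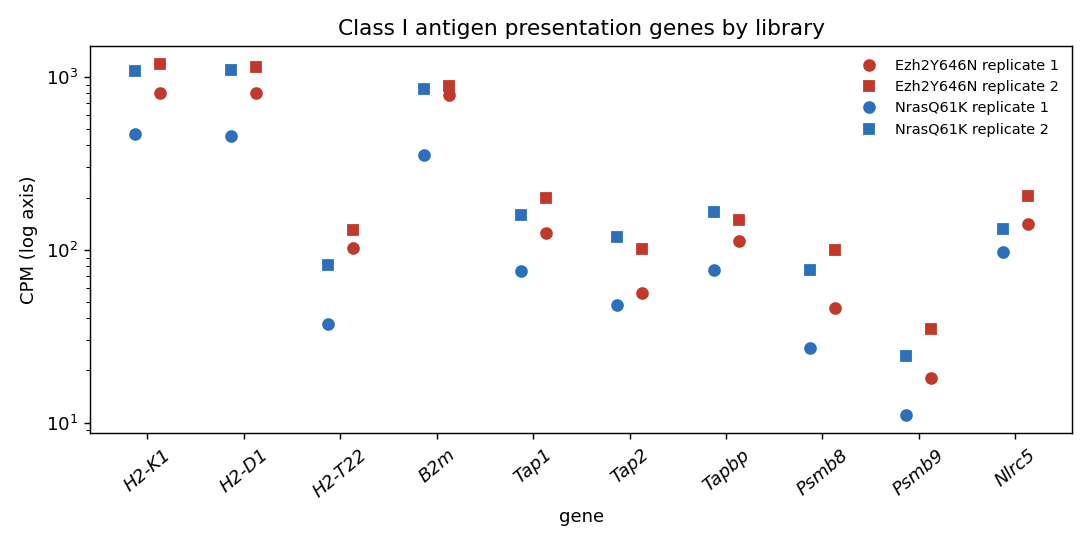
Level of each class I pathway gene in each library, in CPM on a log axis; red points are Ezh2Y646N, blue points NrasQ61K, circles replicate 1 and squares replicate 2. NrasQ61K replicate 1 is the lowest point in all 10 genes, and the groups are apart in H2-T22 and Nlrc5.

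The classical heavy chain genes were among the strongly expressed genes of the pathway and did not separate the groups. H2-K1 (chr17:33996017-34000347), which encodes a classical heavy chain, was at 799 and 1190.3 CPM in the Ezh2Y646N libraries and at 467 and 1076.5 CPM in the NrasQ61K libraries. The groups overlapped, and the difference of 0.37 (SE 0.42, edgeR's adjusted p = 0.80) had a 95% interval from a 0.658-fold to a 2.53-fold level. H2-D1 (chr17:35262730-35267499), the other classical heavy chain gene here, was at 808 and 1140.3 CPM against 457 and 1093 CPM. Its difference was 0.33 (SE 0.42, edgeR's adjusted p = 0.824). The ratio of H2-K1 to H2-D1, each per kb of exon, stayed between 0.865 and 0.916 in the 4 libraries, so the pair moved together. Of 50-base windows along the longest coding transcript, 8.79% in H2-K1 and 14.3% in H2-D1 occur also in a transcript of another gene, and how such reads were counted was not tested. The labels give no strain or MHC haplotype, so the heavy chain levels are those of reads that matched the GRCm38 reference alleles.

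B2m (chr2:122147686-122153083), whose product pairs with every class I heavy chain, was at 787 and 886 CPM in the Ezh2Y646N libraries and at 352 and 846 CPM in the NrasQ61K libraries. Only NrasQ61K replicate 1 stood apart, and the other 3 libraries lay close together. The difference was 0.48 (SE 0.40, edgeR's adjusted p = 0.694), with an interval from 0.731-fold to 2.67-fold. None of its windows occur in another gene, so this order of the libraries was also seen in a gene without close copies.

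H2-T22 (chr17:36037128-36042747), a non-classical heavy chain known in the mouse as a ligand of some gamma-delta T cell receptors, had the largest difference of the 10 genes. It was at 102 and 129 CPM in the Ezh2Y646N libraries and at 37.2 and 81.1 CPM in the NrasQ61K libraries. Both Ezh2Y646N libraries were above both NrasQ61K libraries. Mean levels of 116 ± 18.9 CPM and 59.1 ± 31.1 CPM (SD, n = 2 libraries each) were obtained, and the difference was 0.97 (SE 0.36), with an interval from 1.09-fold to 3.52-fold, an unadjusted p of 0.0301 and an adjusted p of 0.273 in edgeR. With no filter on low counts it was called (edgeR's adjusted p = 0.00937, background 6.95%), as it was with the replicate number as a block (edgeR's adjusted p = 0.0017, background 9.37%) and without NrasQ61K replicate 2 (edgeR's adjusted p = 0.00404). From the same counts, H2-T22 made up more of the sum of the 9 heavy chain genes compared, 4.91% and 3.99% in the Ezh2Y646N libraries against 2.94% and 2.81%. The 95% Wilson intervals ran from 4.70 to 5.14% and from 3.81 to 4.17% in Ezh2Y646N, and from 2.71 to 3.18% and from 2.68 to 2.94% in NrasQ61K. Such intervals cover counting error only. The share of H2-T23 did not overlap either, at 4.26% and 3.77% in the Ezh2Y646N libraries against 3.12% and 3.55%. With 2 libraries in each group an exact permutation test cannot go below p = 0.333, so these shares were not tested. Of the 50-base windows of H2-T22, 44.7% occur in another gene and 37.9% in its close copy H2-T10, which was not analysed here. The values of H2-T22 are uncertain for that reason.

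The peptide transport and loading genes overlapped between the groups. Tap1 (chr17:34187553-34197225), a subunit of the peptide transporter, was at 125 and 198 CPM in the Ezh2Y646N libraries and at 74.8 and 159 CPM in the NrasQ61K libraries, a difference of 0.46 (SE 0.38, edgeR's adjusted p = 0.694). Tap2 (chr17:34203527-34216321), the other subunit, was at 55.8 and 101 CPM against 47.6 and 118 CPM, and its difference of -0.09 (SE 0.45, edgeR's adjusted p = 0.959) was the only value of the 10 below 0. The ratio of Tap1 to Tap2 per kb was 1.54 and 1.36 in the Ezh2Y646N libraries and 1.08 and 0.929 in the NrasQ61K libraries. Unlike each gene alone, this ratio did not overlap between the groups, and it was not tested. The transporter subunits thus did not keep a fixed ratio as H2-K1 and H2-D1 did. Tapbp (chr17:33915899-33929292), which encodes tapasin, was at 112 and 147 CPM against 76.4 and 165 CPM, a difference of 0.11 (SE 0.36, edgeR's adjusted p = 0.944).

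The immunoproteasome genes varied more between libraries of a group than any other member did in the Ezh2Y646N group. Psmb8 (chr17:34197721-34201454), a catalytic subunit that replaces Psmb5 in the immunoproteasome, was at 45.7 and 99.0 CPM in the Ezh2Y646N libraries and at 27.0 and 76.5 CPM in the NrasQ61K libraries. These are 2.17-fold and 2.83-fold gaps within the groups, against a fitted difference of 0.48 between them (SE 0.52, edgeR's adjusted p = 0.786). Psmb9 (chr17:34181987-34187764), which replaces Psmb6, was at 18.2 and 34.5 CPM against 11.0 and 24.4 CPM, a difference of 0.57 (SE 0.45, edgeR's adjusted p = 0.672). Tap1 and Psmb9, which start from the same stretch of DNA, kept a ratio per kb between 3.83 and 4.58 in the 4 libraries.

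Set against the constitutive subunits they replace, the inducible subunits did not separate the groups either. Psmb5 was at 29.4 and 15.5 CPM in the Ezh2Y646N libraries and at 21.7 and 27.8 CPM in the NrasQ61K libraries. The ratio of Psmb8 to Psmb5 per kb was therefore 0.413 and 1.69 in the Ezh2Y646N libraries and 0.332 and 0.733 in the NrasQ61K libraries. That of Psmb9 to Psmb6 was 0.114 and 0.200 against 0.0757 and 0.155, and that of Psmb10, the inducible partner of Psmb7, was 0.224 and 0.435 to Psmb7 against 0.263 and 0.479. All 3 ratios overlapped between the groups and were higher in replicate 2 than in replicate 1 of each. The ratio of Psmb8 to Psmb5 in Ezh2Y646N differed both through a higher Psmb8 and through a lower Psmb5 in replicate 2.

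**Figure D2:**
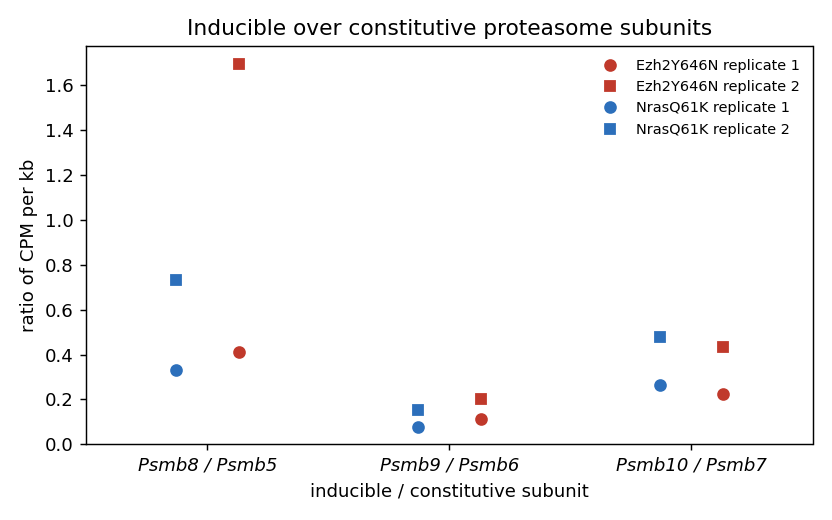
Ratio of each inducible proteasome subunit to the constitutive subunit it replaces, from CPM per kb of exon, by library (colours and shapes by group and replicate). The ratio of Psmb8 to Psmb5 runs from 0.332 to 1.69, and the groups overlap in all 3 pairs.

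Nlrc5 (chr8:94434356-94527272), the transactivator of class I genes, was at 140 and 204 CPM in the Ezh2Y646N libraries and at 97.0 and 132 CPM in the NrasQ61K libraries. Both Ezh2Y646N libraries were above both NrasQ61K libraries, by a small margin. Nlrc5 averaged 172 ± 45.5 CPM against 114 ± 24.6 CPM (SD, n = 2 libraries each), and its difference was 0.59 (SE 0.27, edgeR's adjusted p = 0.389), with an interval from 0.970-fold to 2.34-fold. Nlrc5 differed less between the NrasQ61K libraries than the other members did, 1.36-fold against 2.13-fold to 2.83-fold.

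**Figure D3:**
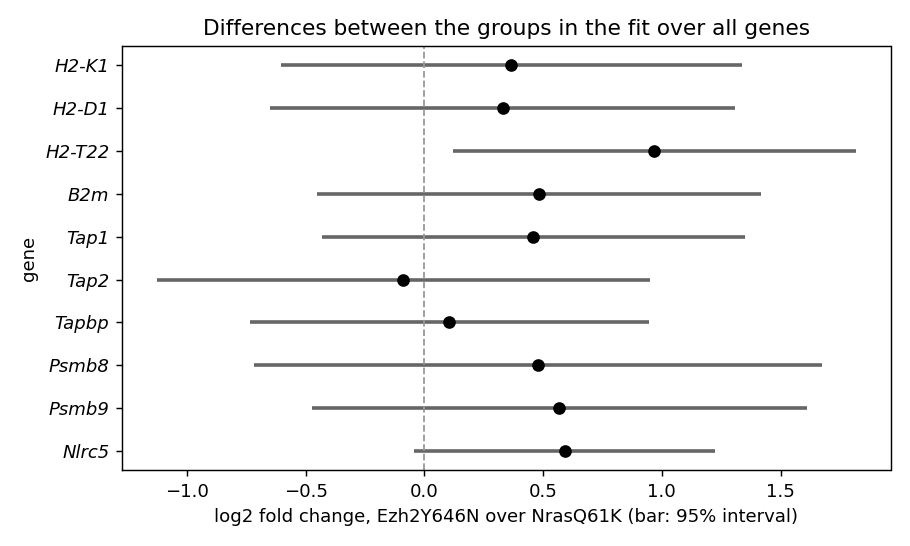
Fitted log2 fold change of Ezh2Y646N over NrasQ61K for each of the 10 genes (point) with its 95% interval (bar) from edgeR's fit over all genes. The intervals of 9 genes include 0, and that of H2-T22 runs from 0.12 to 1.82 before any adjustment for multiple tests.

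Levels of different genes were compared per kb of exon, using the union of annotated exons as the length. B2m had the highest mean CPM per kb in each group, 972 ± 81.8 in Ezh2Y646N and 696 ± 406 in NrasQ61K (SD, n = 2 each). H2-D1 followed with 378 ± 91.2 and 300 ± 174, and H2-K1 with 339 ± 94.1 and 263 ± 147, a pair whose ranges overlapped. Per kb H2-D1 was above H2-K1 in each library, but the order of this pair rests on the length used. The union of exons was 2579 bases in H2-D1 and 2938 in H2-K1, while the longest coding transcripts were 2102 and 1619 bases. In CPM H2-K1 was the higher of the pair in Ezh2Y646N replicate 2 and NrasQ61K replicate 1. The loading genes, H2-T22, Psmb8 and Nlrc5 had means between 13.5 and 35.8 CPM per kb, and neighbours in that order overlapped in range. Psmb9 was the lowest, at 7.20 ± 3.16 and 4.84 ± 2.59 CPM per kb. Its union of exons was 3660 bases, against 1352 in its longest coding transcript, and the order of genes was not tested with other lengths.

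Within each group the order of the libraries was the same in all 10 class I genes. Replicate 2 was above replicate 1 in 10 of 10 genes in the NrasQ61K group and in 10 of 10 in the Ezh2Y646N group, where 50.4% and 49.5% of all genes tested were. The median log2 difference of replicate 2 over replicate 1, on CPM with 1 added, was 1.15 in the NrasQ61K group and 0.56 in the Ezh2Y646N group, against 0.01 and -0.00 over all genes. In sum the 10 genes took 0.287% and 0.396% of counts in the Ezh2Y646N libraries and 0.176% and 0.382% in the NrasQ61K libraries. No 95% Wilson interval of these shares overlapped another, within a group or between groups, and that of NrasQ61K replicate 1 ran from 0.174 to 0.178%. Such intervals cover counting error only, not the spread between libraries, and no difference in these shares was tested.

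Other class I chains had a like order of libraries and also gave no call. Of 20 genes on the list 18 had a row and 11 were tested, 0 were called, 7 were above 0 and the median difference was 0.15. Without NrasQ61K replicate 2 the median was 0.87, and without NrasQ61K replicate 1 it was -0.34. H2-T23, a non-classical chain recognised by receptors of natural killer cells, was at 88.8 and 122 CPM in the Ezh2Y646N libraries against 39.4 and 103 CPM. Mr1, which presents vitamin metabolites, was at 32.9 and 30.6 CPM against 10.4 and 25.4 CPM, with no overlap. Its difference was 0.82 (edgeR's adjusted p = 0.429). In all, 3 of the 11 genes showed no overlap, against 44.2% of all genes tested. The other genes without overlap, H2-T24 and Cd1d1, were lower in Ezh2Y646N, each with a difference of -0.70. H2-M3, which presents formylated peptides, had a difference of 0.78 (edgeR's adjusted p = 0.65).

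The rest of the pathway gave 0 calls as well. Of 16 chaperones and trimming enzymes 11 were above 0, with a median difference of 0.08. Among them Tapbpl, a relative of tapasin, was at 25.3 and 26.7 CPM against 10.7 and 18.5 CPM, a difference of 0.83 (SE 0.33, edgeR's adjusted p = 0.296), the aminopeptidase gene Lap3 had a difference of -0.56 and the protease gene Nrd1 of 0.40. The inducible proteasome partners Psme1, Psme2 and Psmb10 had differences of 0.75, 0.39 and -0.14. The constitutive proteasome, with 17 genes, had a median of 0.03, with Psma4 at 0.43, Psme4 at -0.27 and Psme3 at -0.20. Its summed level was nearly level across libraries, from 1337 to 1520 CPM, where that of the 10 class I genes ran from 1646 to 4130 CPM.

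No regulator or interferon gene on these lists passed the test. Groups without overlap were seen in 5 of 13 regulators, 4 of 14 signalling genes and 7 of 43 interferon-stimulated genes. Over all genes tested the share without overlap was larger, at 44.2%. The 13 transcriptional regulators of class I genes had a median difference of -0.05, with the X-box factor subunit Rfxap at 0.39, Atf1 at -0.30 and the Y-box subunit Nfyb at 0.24. The 14 genes of interferon receptors and signalling had a median of -0.08, with 4 above 0. Of these the receptor kinase Jak1 was at 377 and 339 CPM in the Ezh2Y646N libraries against 185 and 275 CPM, a difference of 0.64 (SE 0.27, edgeR's adjusted p = 0.33), and Socs1 and Tyk2 had differences of -0.58 and -0.26. Of 45 interferon-stimulated genes 43 were tested, 15 were above 0 and the median was -0.096. Without NrasQ61K replicate 2 the median turned to 0.35 with 33 above 0, and without Ezh2Y646N replicate 1 to 0.16 with 28 above 0. Leaving out NrasQ61K replicate 1 gave -0.37 with 8 above 0. Within the groups these genes followed a like order, with replicate 2 above replicate 1 in 37 of the 43 in NrasQ61K and in 35 in Ezh2Y646N. Oasl1 had 28 and 23 counts in the NrasQ61K libraries and 1 and 0 in the Ezh2Y646N libraries (edgeR's adjusted p = 0.0945), while the RNA sensor kinase gene Eif2ak2 had a difference of 0.59 and Trim25 of 0.40. The 12 genes of PRC2 subunits had a median of -0.11, with Phf19 at 1.66, Epop at -0.47 and Mtf2 at -0.46.

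MHC class II genes, which antigen presenting cells use to show peptides to CD4 T cells, gave 0 calls. Of 8 tested 7 were below 0, with a median difference of -1.17. Cd74, the invariant chain, was at 38.2 and 78.8 CPM in the Ezh2Y646N libraries against 69.1 and 223 CPM, a difference of -1.32 (SE 0.55, edgeR's adjusted p = 0.327), and H2-Aa and H2-Eb1 had differences of -1.19 and -1.15. The ratio of Cd74 to B2m per kb was 0.0249 and 0.0456 in the Ezh2Y646N libraries and 0.101 and 0.135 in the NrasQ61K libraries. This ratio did not overlap between the groups and was not tested. Among single genes, 44.2% of all tested showed no overlap. When NrasQ61K replicate 2 was left out the class II median moved to -0.21. It was -1.72 when replicate 1 of that group was left out. With no filter on low counts 4 class II genes fell, in a fit that called 6.95% of all genes in either direction. With the replicate number as a block 4 fell as well, where 9.37% of all genes were called.

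**Figure D4:**
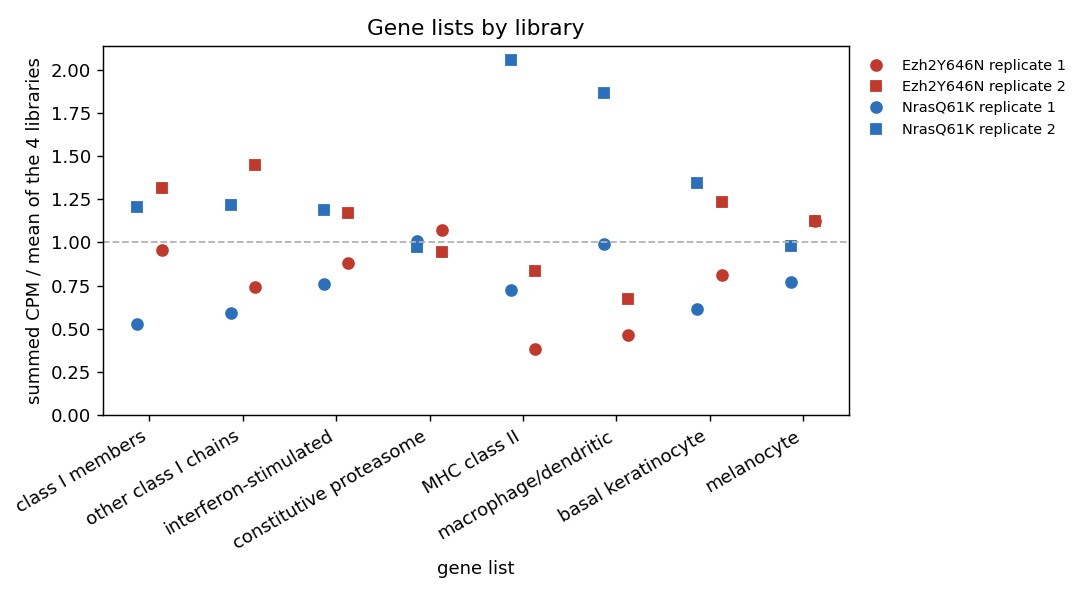
Summed CPM of 8 gene lists in each library, divided by the mean of the 4 libraries (colours and shapes by group and replicate; the Ezh2Y646N points of the melanocyte list lie on each other). The class I genes, other class I chains, and the basal keratinocyte, interferon-stimulated and melanocyte lists are lowest in NrasQ61K replicate 1. In that order they are at 0.525, 0.591, 0.612, 0.761 and 0.770 of the mean. Macrophage and dendritic markers are lowest in Ezh2Y646N.

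Markers of the cells that a sort from skin could hold moved with the groups or with single libraries, and their part in the class I values was not tested. Of 14 melanocyte markers 0 were called, 12 were above 0 and the median was 0.31, with a summed level of 4142 and 4151 CPM in the Ezh2Y646N libraries against 2835 and 3605 CPM. Basal keratinocyte markers had 0 of 10 called, 8 above 0 and a median of 0.19. Their summed level was 16120 and 24567 CPM against 12193 and 26750 CPM, lowest in NrasQ61K replicate 1. That library was also the lowest in summed CPM for the class I genes, other class I chains, interferon-stimulated genes and melanocyte markers. The basal keratinocyte median was -0.047 without NrasQ61K replicate 1 and 0.68 when NrasQ61K replicate 2 was left out. Krt5 and Krt14, the 2 most abundant, were the 2 basal markers below 0, with differences of -0.01 and -0.36. Of 12 suprabasal keratinocyte markers 4 rose and 0 fell, where 1.1% and 0.673% of all genes did, and the median was 2.32. The 4, named after their values were seen, were Lor, Ivl, Hrnr and Cdsn, genes of the cornified envelope and its junctions. The summed level of the 12 markers was 42701 and 30120 CPM against 3593 and 9150 CPM, and Krt10 and Krt1 had differences of 2.78 and 2.30. Of 16 hair shaft and inner root sheath markers 8 fell, where 0.673% of all genes fell, and the median was -3.08. Tchh and Krt71 had differences of -2.51 and -2.43. When a library was left out the suprabasal median ran from 1.77 to 3.24 and the hair median from -3.67 to -2.24. The calls in both lists changed with the library left out.

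Most immune and stromal markers had a fitted difference below 0, and few passed the test. Of 18 macrophage and dendritic cell markers edgeR called 0 and DESeq2 4 lower, where DESeq2 called 4.43% of all genes in either direction. Of the 18 markers 17 were below 0, with a median of -1.28. Their summed level was 64.8 and 94.2 CPM against 139 and 261 CPM, and Lyz2 and Ctss had differences of -1.51 and -1.65. Without NrasQ61K replicate 2 the macrophage median was -0.53 with 6 of 18 above 0, and the Langerhans cell median was -0.20 with 2 of 5 above 0. The 5 Langerhans cell markers, of which Cd74 is also in the class II list, had a median of -1.03 and 0 calls, with Epcam at -0.49. Of 9 tested T and NK lymphocyte markers 0 were called, with a median of -0.27, a summed level of 41.3 to 94.1 CPM, Trbc2 at 1.14 and Thy1 at -0.23, and 1 of the 16 on the list was at 0 in all libraries. The lymphocyte median turned to 1.99 without NrasQ61K replicate 2, where 8 of 8 were above 0, and to 0.40 without Ezh2Y646N replicate 1. It was -1.29 when Ezh2Y646N replicate 2 was left out. All 15 endothelial markers were below 0 with 0 calls and a median of -0.80, with Plvap at -1.20 and Pecam1 at -0.87. Of 15 fibroblast markers 2 fell, Dpt and Cd34, named after their values were seen, where 0.673% of all genes fell. The fibroblast median was -1.18, with Col1a1 at -1.13 and Col3a1 at -1.20. It ran from -1.94 to -0.85 when a library was left out, and the calls changed with the library left out. Of 13 Schwann cell markers 11 were above 0, with a median of 2.10, which was 0.84 without Ezh2Y646N replicate 1. The 2 most abundant of them, Mbp and Egr2, had differences of 2.39 and -0.80.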

How the data were processed

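The deposited values are whole-number read counts per Ensembl gene, 1 file per library and not normalized. Listed in the submitters' processing notes are GRCm38 as build and, with no role given, STAR 2.5.4b, Trimmomatic, bcl2fastq 2.19, edgeR and featureCounts. For the annotation release and the strand setting the entry is: not given in the sources used here. RNA was prepared with a micro-scale kit, and libraries with a stranded low-input kit including ribosomal RNA removal, per the labels' protocols. Symbols, positions and exon lengths came from GENCODE M21 (GRCm38), which held 22291 of the 22524 identifiers. Promoters are from RefSeq's GRCm38.p6 table.

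The test was edgeR 4.0.16 (R 4.3.3): filterByExpr (minimum 10 counts, 15 over all libraries), TMM scaling, a robust quasi-likelihood fit with group as its term, and Benjamini-Hochberg adjustment over 14265 genes with a threshold of 0.05. The biological coefficient of variation was 27.9%. Standard errors were derived from each log2 fold change and its F, and the 95% intervals from the SE and the fit's degrees of freedom. The fit was tested on simulated counts. Alternatives were RLE scaling, no filter, a fit that is not robust, DESeq2 1.42.0 without independent filtering, limma 3.58.1's voom, the replicate number as a block, and leaving out each library. The members and lists were chosen with earlier results of these data known. Named besides the members are Ezh2, Nras and Tyr, from each pathway list any called gene (at most 5) and the 3 with the smallest p, from each cell type list the 2 with the highest mean CPM, and the proteasome partners used in ratios. A result from the Schwann cell list is not reported here.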

Additional observations from a re-analysis of the deposited data

How the results depend on the processing

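The 10 class I pathway genes gave 0 calls with RLE scaling, DESeq2, limma voom, a fit that was not robust, and without any 1 of the other 3 libraries, but 5 without NrasQ61K replicate 2, so leaving out a library gave 0 to 5. With no filter on low counts 1 was called, H2-T22. Their median log2 fold change stayed between 0.47 and 0.54 with all 4 libraries and ran from -0.050 to 1.14 when a library was left out. Leaving out a library turned the sign of H2-K1 (range -0.11 to 1.13), H2-D1 (-0.17 to 1.13), B2m (-0.018 to 1.29), Tap2 (-0.60 to 0.76), Tapbp (-0.35 to 0.81) and Psmb8 (-0.19 to 1.46), and the cause was not tested. The log2 difference of the ratio of Psmb8 to Psmb5, 0.76, ran from -0.26 to 1.78 when a library was left out. That of Psmb9 to Psmb6, 0.48, ran from -0.033 to 0.997, and that of Psmb10 to Psmb7, -0.19, from -0.67 to 0.29. Exon length cancels in these differences, so leaving lengths out could not change them.

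Over all genes, 157 were called higher and 96 lower. These counts were 686 and 616 with no filter, 475 and 354 in DESeq2, and 49 to 730 and 43 to 393 when a library was left out. Calls among the pathway and cell type lists, 15 in all, were 66 with no filter, 42 in DESeq2 and 6 to 37 with a library left out. With the replicate number as a block, the counts were 710 and 627 over all genes, 57 in those lists and 1 among the 10 class I genes, H2-T22 (log2 fold change 1.06, edgeR's adjusted p = 0.0017). The labels do not say that a number is shared by litter, batch or day, and deviations from the group means correlated at 0.141 between same-numbered libraries across genes, with 2 pairs only, so the numbers were not taken as a pairing. With 2 libraries a group, the edgeR fit by group on all 4 libraries had 2 residual degrees of freedom. Fits with the replicate number as a block or with a library left out had fewer. The part of depth was not tested.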
